A study of Caenorhabditis elegans with 4 samples.

Results

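The regions described here are the GEI-11 binding regions of Caenorhabditis elegans chromosome IV that lie outside its piRNA domains. They were chosen by position alone, as rows of the combined list whose centre lay below 4.5 Mb, between 7 and 14 Mb, or above 17 Mb of chromosome IV in the WormBase WS220 build. This gave 700 of the 5999 regions of the combined list, 279 in the left stretch, 401 in the middle stretch and 20 in the right stretch. The other 339 regions of chromosome IV lay in the domains. The same borders gave 398 of 3021 regions in ChIP replicate 1 and 459 of 3722 in ChIP replicate 2.

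Chromatin came from whole fed L1 larvae, the first larval stage, grown on E. coli HB101 at 20 °C and fixed with 2% formaldehyde. Per the labels, ChIP and input samples shared a single strain, OP179, with genotype unc-119(ed3) III and the transgene wgIs179, which joins an unc-119(+) copy to gei-11 tagged with TY1, EGFP and 3xFLAG. The transgene was made by biolistic bombardment and drives the tagged protein from a recombineered gei-11 clone, so the regions are those of a tagged copy in a mixture of all larval cells. There were 2 ChIP samples, collected with anti-GFP antibodies, and 2 input samples of total genomic DNA, each numbered as replicates 1 and 2. No input list was used here, sequencing depth is unknown, and separate cultures are not named in the labels, so any spread between replicates may come from handling alone.

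GEI-11 is better known as SNPC-4, the DNA-binding subunit of the small nuclear RNA activating protein complex, SNAPc. In animals SNAPc binds a short element upstream of small nuclear RNA genes and helps recruit RNA polymerase II, or RNA polymerase III for U6. In C. elegans SNPC-4 is also needed for transcription of piRNA genes, the short genes for the small RNAs that guide the Argonaute PRG-1 in the germline, and most of these genes sit in broad domains of chromosome IV. A gene table of the WBcel235 assembly, used only for names and chromosomes, places 14714 of 15363 piRNA genes (95.8%) and 41 of 129 snRNA genes (31.8%) on chromosome IV. Of 9 SNAPc subunit names looked up, 8 were listed, and 1 of them, snpc-3.1, is on chromosome IV. Of the piRNA transcription factors prde-1, tofu-4 and tofu-5, none is on it. That table is of another build than the lists, so what is annotated at each region, and its sequence, are not analysed here.

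The density of GEI-11 regions outside the domains, with weak and strong regions counted alike, was near that inside them. The combined list held 58.4 regions per Mb outside the domains and 61.6 per Mb inside them, a ratio of 0.948 (95% interval 0.831 to 1.08, from the exact binomial interval of the share of chromosome IV regions). In replicate 1 the densities were 33.2 per Mb outside and 31.3 per Mb inside, and in replicate 2 they were 38.3 and 40.5. The ratio lay on the other side of 1 in replicate 1, at 1.06, and when the length covered by regions replaced their number, at 1.11. By covered length the combined list had 20.6 kb per Mb outside and 18.5 kb per Mb inside. Differences between places were not tested here, since regions are not replicates and there were only 2 ChIP lists, and intervals cover counting error only.

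Within the 3 stretches, the left had 62.0 combined regions per Mb, the middle 57.3 and the short right end 41.2. Relative to the density over the 3 stretches together, the left stood at 1.06 (interval 0.964 to 1.16), the middle at 0.981 (0.916 to 1.04) and the right at 0.706 (0.433 to 1.08). In the combined list all 3 intervals include 1, and the right end rests on 20 regions. Replicate 1 had 35.8, 32.4 and 20.6 regions per Mb in the left, middle and right stretches. Replicate 2 had 42.2, 37.1 and 18.6, and there the interval for the right end, which rests on 9 regions, lay below 1 (0.485, 0.223 to 0.912). By number of regions the stretches thus kept 1 order in the 3 lists. By covered length the middle lay above the left in each, at 21.3 kb per Mb in the middle and 19.9 in the left in the combined list, 11.6 and 10.7 in replicate 1, and 12.8 and 12.7 in replicate 2. Over the 11 full blocks of 1 Mb outside the domains the combined list averaged 58.1 ± 6.46 regions (SD), and over the 5 full blocks inside them 63.2 ± 5.72. The sparsest of the 11 blocks began at 10000001 and held 46 combined regions, with 26 in replicate 1 and 31 in replicate 2. The densest began at 7000001 and held 67, with 36 in replicate 1 and 42 in replicate 2.

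**Figure D1:**
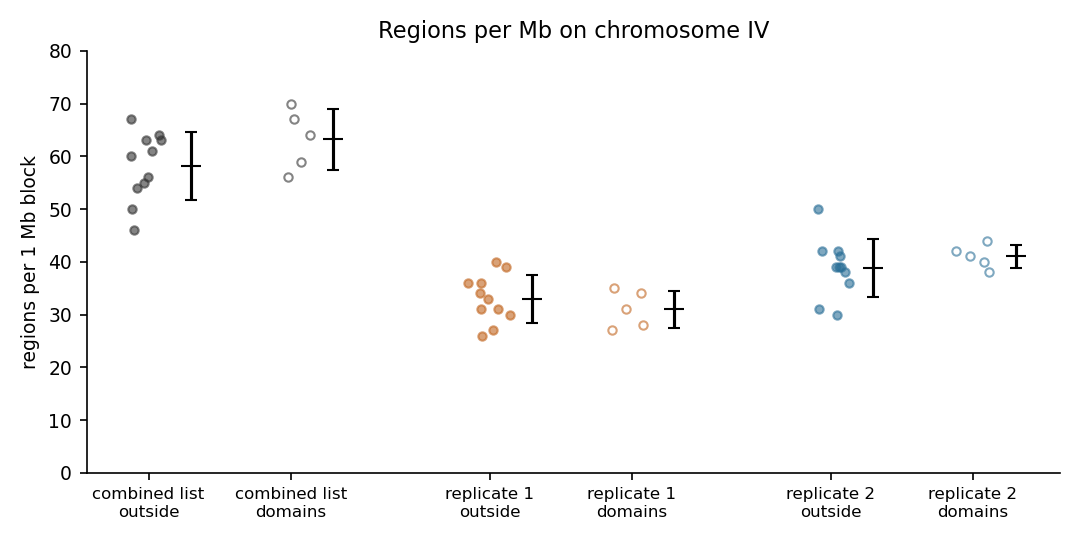
Number of GEI-11 regions in each full 1 Mb block of chromosome IV, outside the piRNA domains (filled points, 11 blocks) and inside them (open points, 5 blocks), in the combined list and each ChIP replicate, with mean ± SD over blocks. Blocks outside the domains ran from 46 to 67 regions in the combined list and overlapped those inside, which ran from 56 to 70.

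Strength was read from the q value that the peak caller gave each region, written as −log10 q, so that 10 stands for a q of 1e-10. It ranks regions within a list, depends on depth and does not measure occupancy across lists. Outside the domains 123 of 700 combined regions (17.6%, exact interval 14.8 to 20.6) reached 10, against 19.7% of the whole combined list and 66 of 339 (19.5%, 15.4 to 24.1) inside the domains. The gap was wider in the replicate lists. In replicate 1, 33 of 398 regions outside (8.29%, 5.78 to 11.4) reached 10, against 11.5% of that list and 28 of 172 (16.3%, 11.1 to 22.7) inside. In replicate 2, 50 of 459 outside (10.9%, 8.19 to 14.1) did so, against 14.2% of that list and 36 of 223 (16.1%, 11.6 to 21.6) inside. The share was thus lower outside than inside in all 3 lists, with intervals that overlap in each. Such overlap is no test, and the difference was not tested. The stretches outside span 11.98 Mb and the domains 5.5 Mb, so by these counts strong regions were also sparser per Mb outside in all 3 lists. Over full 1 Mb blocks the combined list averaged 10.3 ± 2.00 strong regions (SD) outside and 11.2 ± 2.17 inside. Median −log10 q did not keep 1 order, at 4.19 outside and 3.76 inside in the combined list, 3.16 and 3.44 in replicate 1, and 3.68 and 3.54 in replicate 2.

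A handful of very strong regions stood out from the rest of the 700. The combined region at 9444068 to 9444995 had a −log10 q of 214, with 173 in replicate 1 and 197 in replicate 2, and ranked 12 among the rows of the combined list used here. Second was 866661 to 867526, near the left end, with a combined value of 206, 160 for replicate 1 and 180 for replicate 2. The region at 8428182 to 8429200 had 189 combined, 155 in replicate 1 and 164 in replicate 2, and that at 657830 to 658784 had 183, 151 and 172. Each of these 4 ranked within the first 23 of the combined list and of both replicates. Next in strength, 8431489 to 8433339, had 108 combined, with 52.3 in replicate 1 and 60.9 in replicate 2. Among the 700 and their replicate matches, a gap in strength thus separates the first 4 from the rest. Both replicate lists also hold a stronger region that is absent from the 700, given below.

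It was followed by 654677 to 655401, with 90.3 combined, 45.3 in replicate 1 and 63.2 in replicate 2, and 13892992 to 13893650, with 84.9, 43.0 and 62.5 in that order of lists. The region at 9512906 to 9514359 had 72.7, 32.1 and 41.9. The strongest region with no neighbour within 10 kb was 13430123 to 13430522, 400 bp wide, whose nearest neighbour lay 16750 bp away, with 70.6 combined, 33.0 in replicate 1 and 50.3 in replicate 2. In the right stretch the strongest was 17249503 to 17250098, with 48.8, 17.2 and 35.8. Of the 20 strongest regions that both replicates shared, 6 lay in the left stretch, 13 in the middle and 1 in the right. Combined −log10 q ran from 30.0 to 214, while the replicate 1 values spanned 11 to 173 and the replicate 2 values 17.2 to 197. Replicate 2 had the higher value at all 20. Strength and width were not the same thing among them, since 9 of the 20 were narrower than 600 bp and the narrowest, 12795330 to 12795661, spanned 332 bp with a combined −log10 q of 50.1.

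**Figure D2:**
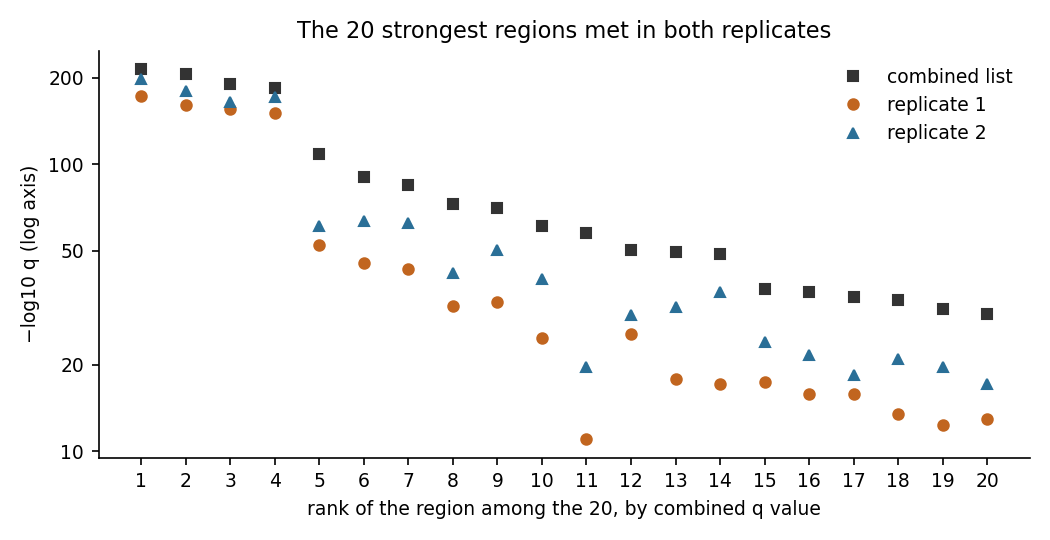
−log10 q (log axis) of the 20 strongest regions of chromosome IV outside the piRNA domains that met a region in both ChIP replicates, ordered by combined q value. The first 4 stand between 151 and 214 in the 3 lists, and replicate 2 (triangles) lies above replicate 1 (circles) at all 20.

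The strongest region of both replicates on chromosome IV outside the domains is missing from the 700. Replicate 1 had it at 9510413 to 9512138, 1726 bp wide, with a −log10 q of 237 and rank 4 of its list. Replicate 2 had it at 9510369 to 9512085, 1717 bp wide, with 290 and rank 2. The combined list used here has no region there, and over all chromosomes 5 of the 10 strongest replicate 1 regions and 3 of the 10 strongest replicate 2 regions have none. Ranks and the word strongest for combined regions therefore cover only the rows held here, and why the combined list used here lacks these very strong regions is not known. It does hold small regions on both flanks, at 9509813 to 9509828 and at 9512468 to 9512640, of 16 bp and 173 bp and −log10 q of 2.08 and 3.43, and then the strong region from 9512906 described above. Of the other replicate regions with no combined counterpart, 36 in replicate 1 and 29 in replicate 2, none was met in the other replicate and none exceeded a −log10 q of 3.04. Their median width was 39 bp in each replicate. In all, 361 of 398 replicate 1 regions (90.7%, exact interval 87.4 to 93.4) met a combined region, against 94.5% of that whole list. In replicate 2, 429 of 459 (93.5%, 90.8 to 95.5) did so, against 95.6%.

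Several of the strongest regions lay side by side. Of the 20, 13 had another combined region within 5 kb and 10 had one of −log10 q of 10 or more. No neighbour within 10 kb was found for 3. Gaps between neighbouring combined regions outside the domains had a first quartile of 3089 bp and a median of 9371 bp. The share of all regions with any neighbour within 5 kb was not computed, so 13 of 20 does not set the strongest apart. The regions at 654677 and 657830 were 2428 bp apart, those at 8428182 and 8431489 2288 bp, and those at 9440794 and 9444068 1437 bp. Around the last of these, 9438674 to 9439533 (combined −log10 q of 14.2) and 9447166 to 9447500 (11) completed a run of 4 strong regions, each met in both replicates. The 100 kb window from 9400001 held 6 strong regions, the most of any window outside the domains, among 9 combined regions, 8 in replicate 1 and 10 in replicate 2. A second run lay at 12781823 to 12795661, where regions of 12.1, 16.9, 36.7 and 50.1 (combined −log10 q) followed each other. These runs were picked after their values were seen. Over all 123 strong regions outside the domains, 31 (25.2%, exact interval 17.8 to 33.8) had another strong region within 5 kb, against 26.2% over the whole combined list and 20 of 66 (30.3%, 19.6 to 42.9) inside.

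Repeated calling was the replicate check that these lists allow, with regions matched where they shared at least 1 bp. Both replicates had a matching region for 287 of the 700 combined regions (41.0%, exact interval 37.3 to 44.7), against 38.8% of the whole combined list and 38.6% (33.4 to 44.1) inside the domains. Replicate 1 alone met 66 (9.43%, against 8.15% of the list), replicate 2 alone met 134 (19.1%, against 19.9%), and 213 met neither (30.4%, 27.0 to 34.0, against 33.2%). These shares are near those of the whole list. The left stretch had 41.9% met in both, the middle 41.1% and the right 5 of 20 (interval 8.66 to 49.1%).

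The share met in both replicates followed strength closely. The combined list covers the same 2 ChIP samples, so part of this relation is built in and it is no independent check. Ranked by combined q value, 99 of the first 100 regions, 94 of the next 100 and 72 of the third 100 met both replicates. At ranks 301 to 400 it was 21, at ranks 401 to 500 it was 1, and beyond rank 500 it was 0 of 200. Regions met in neither numbered 47 at ranks 401 to 500, 70 at ranks 501 to 600 and 87 at ranks 601 to 700. Only 1 region of −log10 q of 10 or more missed a replicate, 4237919 to 4239397 in the left stretch, 1479 bp wide with 12.9 in the combined list and 6.88 in replicate 1, where it met 2 regions, and no region in replicate 2. Both replicates were thus met by 122 of 123 such regions outside the domains. Elsewhere it was much the same, at 66 of 66 inside the domains and 989 of 992 on the other chromosomes.

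**Figure D3:**
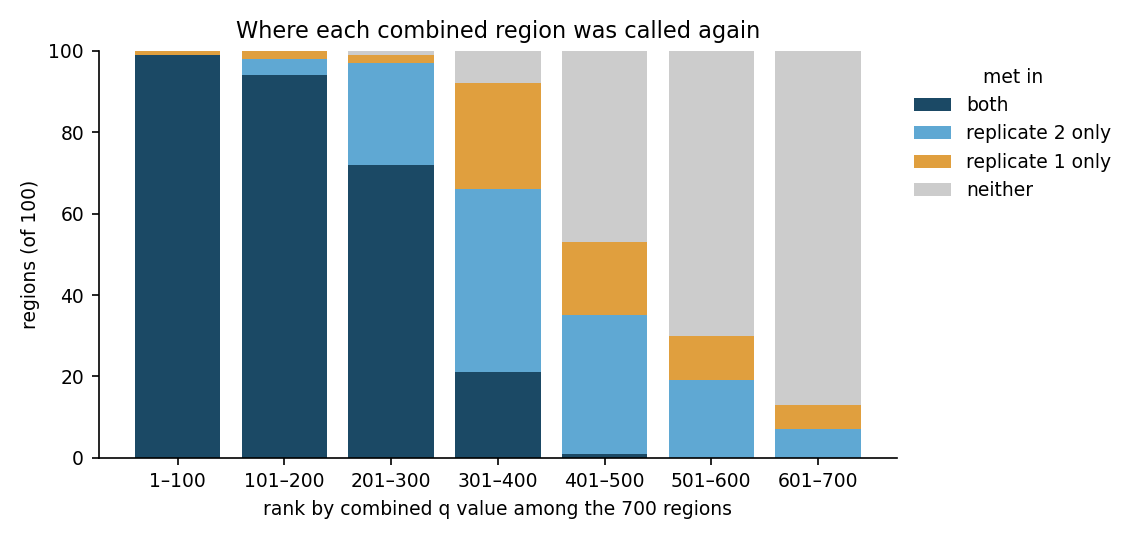
The 700 regions in groups of 100 by combined q value, split by whether they met a region in both ChIP replicates, in replicate 2 only, in replicate 1 only or in neither. Regions met in both fill 99 of the first 100 and none beyond rank 500, where regions met in neither make up 70 and then 87 of each 100. The combined q value covers the same 2 ChIP samples, so part of this relation is built in.

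Within ranges of −log10 q the repeated calls were compared with other places. The ranges are wide, and strength was not matched within them. From 5 to 10, regions met in both had median −log10 q of 7.53 outside the domains and 7.38 inside. On the other chromosomes it was 7.11, and 7.07 without chromosome I. Whether the shares differ at equal strength was not tested. Between −log10 q of 5 and 10, 140 of 172 regions outside the domains met both replicates (81.4%, exact interval 74.8 to 86.9). Inside the domains 57 of 72 did so (79.2%, 68.0 to 87.8), and on the other chromosomes 800 of 1154 (69.3%, 66.6 to 72.0). Chromosome I, where only 88 of 214 met both (41.1%), lowered the last value, and the other chromosomes without it stood at 75.7% (72.9 to 78.5). Setting chromosome I apart was not planned. Between 3 and 5 the share was 14.5% (25 of 173) outside and 9.52% (8 of 84) inside. On the other chromosomes it was 9.82% (118 of 1202), and without I 11.8% (116 of 986). Below 3 it was 0 of 232, 0 of 117, 0 of 1612 and 0 of 1354 in the same order.

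The 5 strongest regions that met neither replicate ranked from 296 to 371 of the 700 by q value. The first, 11359120 to 11359132, was 13 bp wide with a combined −log10 q of 4.96, against a median of 4.19 over the 700. After it came 3382664 to 3382902 (4.65, 239 bp), 13028966 to 13029362 (4.38, 397 bp), 8526053 to 8526690 (4.26, 638 bp) and 17211808 to 17212052 (3.92, 245 bp). For regions met in neither, the medians were 2.45 for −log10 q and 175 bp for width, and those met in both had 9.23 and 400 bp. Regions met in replicate 1 only and in replicate 2 only had medians of 3.45 and 3.69.

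Replicate against replicate, 293 of 398 replicate 1 regions outside the domains met a replicate 2 region (73.6%, exact interval 69.0 to 77.9), against 77.6% of that whole list and 132 of 172 (76.7%, 69.7 to 82.8) inside. In the other direction 291 of 459 replicate 2 regions met a replicate 1 region (63.4%, 58.8 to 67.8), against 63.0% of that list and 133 of 223 (59.6%, 52.9 to 66.1) inside. Every region of −log10 q of 10 or more was met, 33 of 33 in replicate 1 and 50 of 50 in replicate 2. Of the weak regions under 3, 91 of 177 in replicate 1 (51.4%) and 56 of 174 in replicate 2 (32.2%) were met. Counts by strength are not given for the whole replicate lists, so these do not set the regions outside the domains apart.

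At the 287 regions met in both, −log10 q was higher in replicate 2 at 196 (68.3%, exact interval 62.6 to 73.6), against 71.1% over the whole combined list, and the median of replicate 2 minus replicate 1 was 0.75 (interval 0.52 to 1.08). All 11 regions at 20 or more in replicate 1 were higher in replicate 2. Between 5 and 10 in replicate 1 it was 42 of 76, with differences from -5.75 to 12.1. The largest difference the other way was at 3803292 to 3803718, with 8.40 in replicate 1 and 2.65 in replicate 2. Across these regions of 2 libraries Pearson's r was 0.991 and Spearman's rho 0.689, and among the 256 regions under 10 in replicate 1 they were 0.664 and 0.565. The high r thus rests on the few very strong regions. The combined value exceeded both replicates at 285 of the 287.

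**Figure D4:**
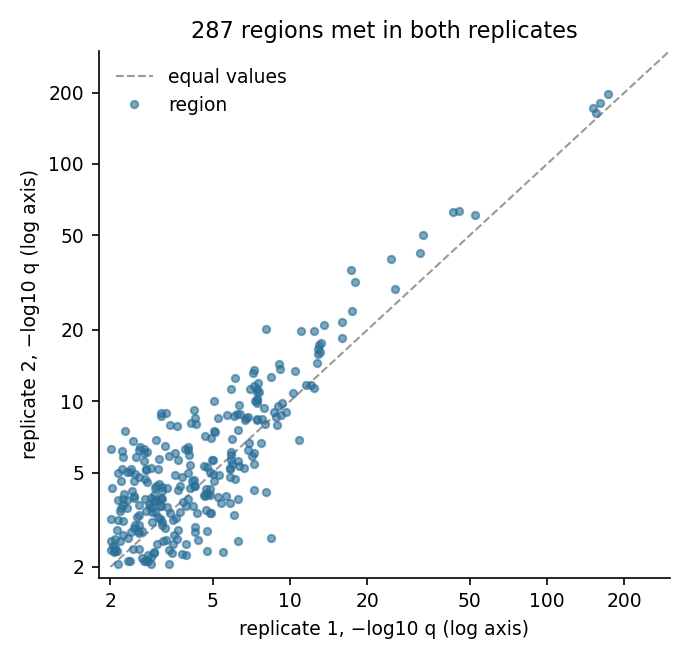
−log10 q in ChIP replicate 1 (horizontal) and replicate 2 (vertical), both log axes, for the 287 regions outside the piRNA domains met in both replicates, with the line of equal values. Of these, 196 lie above the line, including all 11 at 20 or more in replicate 1.

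Regions met in both had to overlap the same combined region, so the distance between their replicate calls was limited by that choice. The best match was picked separately in each replicate, so the paired calls need not overlap each other, as at 9440794 to 9442630. The same pairs gave the differences in −log10 q above. The centres of the 2 replicate regions lay 34 bp apart in the median over the 287, within 50 bp at 181 (63.1%) and over 200 bp apart at 10, with a largest distance of 960 bp. Over the 122 strong regions met in both the median distance was 29 bp. Combined regions were the widest, with a median of 400 bp at these 287 sites, against 326 bp in replicate 1 and 336 bp in replicate 2.

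Over all 700, width had a median of 310 bp outside the domains, against 315 bp in the whole combined list and 275 bp inside. Middle values (first to last quartile) ran from 200 to 421.5 bp outside and from 167 to 387 bp inside. The widths ran from 2 to 2336 bp. Regions of 600 bp or wider numbered 79 (11.3%, exact interval 9.04 to 13.9), against 11.2% of the whole combined list and 25 of 339 (7.37%, 4.83 to 10.7) inside. Of the 79, 61 met both replicates. Regions under 50 bp numbered 55 (7.86%, 5.97 to 10.1), against 7.30% of the list and 37 (10.9%, 7.80 to 14.7) inside, and none of the 55 met both replicates. Among the 170 regions under 200 bp, 1 met both, at 194 bp, and none reached a −log10 q of 10. Counts met in both by width are not given for other places, so they do not set the 700 apart.

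The widest region was 17279311 to 17281646 in the right stretch, 2336 bp, with a combined −log10 q of 18.4. It met 2 regions in replicate 1 and 1 in replicate 2, where the best matches were 616 bp (−log10 q of 3.28) and 696 bp (8.94). The next, 11025830 to 11028111, spanned 2282 bp with 13.8 in the combined list, and matched 533 bp in replicate 1 (2.40) and 1279 bp in replicate 2 (5.18). They ranked 43 and 77 of the 700 by q value, and their best matches were narrower in each replicate. In contrast, 8431489 to 8433339 kept its width, with 1851 bp combined, 1731 bp in replicate 1 and 1672 bp in replicate 2. The remaining regions among the 5 widest, 9440794 to 9442630 (1837 bp) and 11592841 to 11594666 (1826 bp), each met 2 regions in each replicate.

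**Figure D5:**
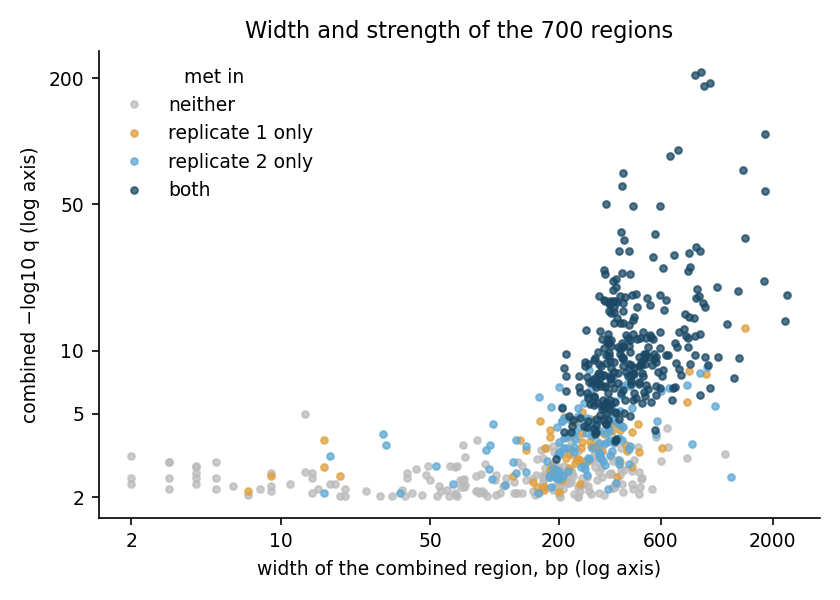
Width in bp (horizontal, log axis) and combined −log10 q (vertical, log axis) of the 700 regions, coloured by the replicates in which they met a region. Regions under 200 bp stay below a −log10 q of 10, and regions met in both replicates (dark) have a median width of 400 bp.

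Neighbouring regions outside the domains were separated by a median of 9371 bp, against 6958 bp inside. A neighbour within 1 kb was found for 137 of the 700 (19.6%, exact interval 16.7 to 22.7), against 21% of the whole combined list and 70 of 339 (20.6%, 16.5 to 25.4) inside. By stretch it was 72 of 279 in the left (25.8%) and 63 of 401 in the middle (15.7%), but each close pair counts both of its regions. Counted as gaps, 40 of 278 in the left (14.4%, 10.5 to 19.1) and 33 of 400 in the middle (8.25%, 5.75 to 11.4) were within 1 kb, with intervals that overlap. Such overlap is no test, and the difference was not tested. In the replicate lists the shares of regions with such a neighbour were 14.9% in the left and 11% in the middle in replicate 1, and 19.5% and 13.1% in replicate 2. Regions with such a neighbour met both replicates at 43.8% (35.3 to 52.5) and the others at 40.3% (36.2 to 44.5).

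In the combined list most of the crowded windows outside the domains lay in the left stretch. The fullest 100 kb window began at 2700001 and held 15 combined regions, with 4 in replicate 1, 10 in replicate 2 and 1 strong region. The window from 4000001 held 14, with 7 in each replicate. Those from 3500001 and 4400001 held 13 each, with 6 and 8 in replicate 1 and 9 in replicate 2 at both. The window from 2600001 held 12, with 7 and 11 in replicates 1 and 2, and tied with the window from 13800001, the only one of these 6 in the middle stretch. The median over 120 windows was 6 regions, none was empty in the combined list, and 49 held no strong region. Inside the domains the median over 55 windows was also 6, 2 were empty and 17 held no strong region. Windows with 12 or more combined regions numbered 4 of 55 inside, where the most was 14, and 6 of 120 outside. Replicate 1 did not share the lean to the left. Its fullest windows outside, with 8 regions each, began at 800001 and 4400001 in the left and at 9400001, 11500001 and 13800001 in the middle.

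The longest gap between neighbouring regions ran from 10505536 to 10630110, 124575 bp, and held 1 region in each replicate. The second, from 9536380 to 9647876 (111497 bp), held none in either replicate. The third, from 2495469 to 2599621 (104153 bp), held 1 in replicate 1 and none in replicate 2, and lay directly before the crowded windows from 2600001. Gaps of 100 kb or more numbered 3 among 697 outside the domains and 6 among 337 inside.

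At the borders that define the set, the nearest regions outside had combined −log10 q of 2.01 to 3.44. Over the 700 the median was 4.19, and 232 lay under 3, so such weak regions are common. At 4.5 Mb the nearest was 4476887 to 4477492 outside (3.44, replicate 1 only) and 4506693 to 4506836 inside (2.10, replicate 2 only), values being combined −log10 q. At 7 Mb they were 7011700 to 7011766 outside (2.01) and 6965376 to 6965384 inside (2.10), both met in neither replicate. At 14 Mb they were 13991476 to 13991478 outside, 3 bp wide (2.19, neither), and 14013681 to 14014088 inside (52.6, both). Only 1259 bp from that 3 bp region lay the strong 13989813 to 13990216 (33.7, both), also outside. At 17 Mb they were 17053151 to 17053325 outside (3.42, neither) and 16995438 to 16995770 inside (7.01, both).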

How the data were processed

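GEI-11 was mapped by ChIP-seq in 2 ChIP samples, beside 2 inputs. The values used were the q values that the authors deposited in 3 lists of regions, 1 per ChIP replicate and 1 combined. Regions are PeakSeq calls with positions in WormBase WS220, carried over from an unnamed earlier build, per the file headers; comment lines on that step named 0 regions of chromosome IV. For the way replicates were combined, the aligner, versions, filters and use of inputs, nothing is stated in the labels or headers.

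The members, borders and descriptions were chosen with earlier results of these data known. An overlap of 1 bp or more counted as a match, and centres followed the floor of the mean of start and end. Named regions were the 20 strongest met in both replicates, the 5 widest, the 5 strongest met in neither, replicate regions among the 10 strongest of their list with no combined region, the 5 fullest 100 kb windows, the 3 longest gaps and those nearest each border. Other regions were picked after their values were seen. Intervals are 95% exact Clopper-Pearson; those of medians are exact binomial. The end of chromosome IV was taken as the furthest region end, 17484885. Matching was tested on simulated regions with a single partner or none, so regions that meet several others were not covered by that test. Python 3.11.15, pandas 2.3.3, NumPy 2.4.6, SciPy 1.17.1 and Matplotlib 3.10.9 were used. Columns of other samples numbered 0.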

Additional observations from a re-analysis of the deposited data

How the results depend on the processing

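Of 64 alternatives over 13 values, 50 stayed within the interval of the reported value (for the number of regions, within 1.5 times it) and 14 did not. The number of regions ran from 468 (q of 0.001 or less) to 766 (unmatched replicate regions added, chosen after seeing the data). The density ratio outside over inside the domains moved to 1.11 by covered length. With q of 0.001 or less in every list, the share met in both replicates was 37.2%, that of replicate 1 regions met in replicate 2 was 80.5%, the median width 358 bp and the share with a neighbour within 1 kb 16.2%; the stricter list leaves out weak regions by construction. Regions of at least 50 bp gave 26.7% met in neither.

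With 1 replicate left out, 50.4% to 60.1% of the regions met the remaining list and 39.9% to 49.6% did not. Meeting 1 list asks less than meeting both, and missing 1 asks less than missing both, so by construction these shares could not fall. Either replicate list alone gave density ratios of 0.945 to 1.06 outside over inside, 1.08 to 1.1 for the left stretch, 0.970 to 0.977 for the middle and 0.485 to 0.621 for the right. It gave median −log10 q of 3.16 to 3.68, median widths of 297.5 to 305 bp and a share with a neighbour within 1 kb of 12.8% to 15.5%. Other domain borders (4 to 8 and 13 to 17 Mb), 50% overlap, centres within 200 bp and merging within 1 kb moved no value beyond its interval. Apart from the moves given as by construction, the cause of each move was not tested. No paired analysis was possible because no input list was used, and the 2 ChIP samples form a single group. Depth is unknown, so its limit on weak regions was not measured.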
